A study of Mus musculus with 16 samples.

Results

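The genes examined here are 10 markers of lipid-associated macrophages, namely Trem2, Gpnmb, Spp1, Mmp12, Itgax, Cd68, Cd9, Atp6v0d2, Dcstamp and Ctsk. They were chosen by name, with earlier results of these data known, out of 51060 genes to which transcripts could be assigned. All 10 were among the 15632 genes with enough counts to be tested. RNA came from interscapular brown adipose tissue (BAT) of 16 mice aged 7 weeks, fed ad libitum at room temperature, with 4 females and 4 males of each genotype. OPA1 BKO mice carried floxed alleles of Opa1, which encodes a GTPase of the inner mitochondrial membrane, together with Cre (labelled Opa1-flox_Cre+), and the wild-type (WT) littermates carried the floxed alleles without Cre (Opa1-flox_Cre-), all on a C57Bl/6J background. Cre was driven by the Ucp1 promoter, which is active in brown adipocytes, so the recombination was directed at adipocytes and the macrophages of the same tissue were not its target. No mouse in the comparison carried Cre without floxed Opa1.

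Macrophages that take up lipid in adipose tissue, in atherosclerotic plaques and around dying cells share a set of transcripts that depends in part on TREM2, a surface receptor for lipids and lipoproteins that signals through the adaptor TYROBP. Among the products of this set are receptors and adhesion molecules, proteins of the lysosome that handle the ingested material, secreted proteins that act on the matrix and on other cells, and proteins for the fusion of macrophages into multinucleated cells. In BAT, macrophages take up material that brown adipocytes release, including damaged mitochondria. Sequencing whole tissue measures the RNA of all its cells together, so more cells of a type cannot be told apart from more RNA per cell.

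Estimated counts per mouse summed to between 13607283 and 23114534. Opa1 itself was at 184 ± 18.3 CPM (counts relative to the TMM-scaled size of each library) in WT and at 26.1 ± 7.32 in OPA1 BKO mice (SD, n = 8 each), and the genotypes did not overlap. Transcripts of the mitochondrial genome took 23.3% to 30.5% of the counts in WT but 4.44% to 9.02% in OPA1 BKO mice. Scaled to the library total alone, the median log2 difference of all tested genes was 0.57, against 0.010 after TMM scaling. CPM after TMM scaling was therefore used throughout, and TPM only to set genes of different length side by side within a genotype.

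Of the 10 genes, 9 were higher in OPA1 BKO BAT at an adjusted p-value under 0.05 and none was lower, against a background of 20.8% higher and 20.2% lower among all genes tested (edgeR's quasi-likelihood test, both sexes, with a term for sex). The same shares are the background for each gene list counted below over both sexes. The median log2 fold change of the 10 genes was 2.21, beside 0.010 over all genes tested. Since the genes were chosen with earlier results known, these contrasts describe them and are not an independent test. Mmp12, a secreted elastase, changed the most, with a fitted fold change of 30.4, followed by the fusion protein gene Dcstamp, the lysosomal glycoprotein gene Gpnmb and the proton pump subunit gene Atp6v0d2. Spp1, Trem2 and Itgax differed by 4.67-fold, 4.58-fold and 4.44-fold. Cd68 differed by 2.97-fold and Ctsk by 1.78-fold, and the tetraspanin gene Cd9 did not pass the test at 1.08-fold. The 8 values of each genotype did not overlap for Mmp12, Itgax and Ctsk, which is 3 of the 10 genes, where 5.07% of all tested genes had every OPA1 BKO mouse above every WT mouse and 4.89% every OPA1 BKO mouse below. For Ctsk this rests on a near tie, with the highest WT value at 4.62298 CPM and the lowest OPA1 BKO value at 4.62397 CPM.

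**Figure D1:**
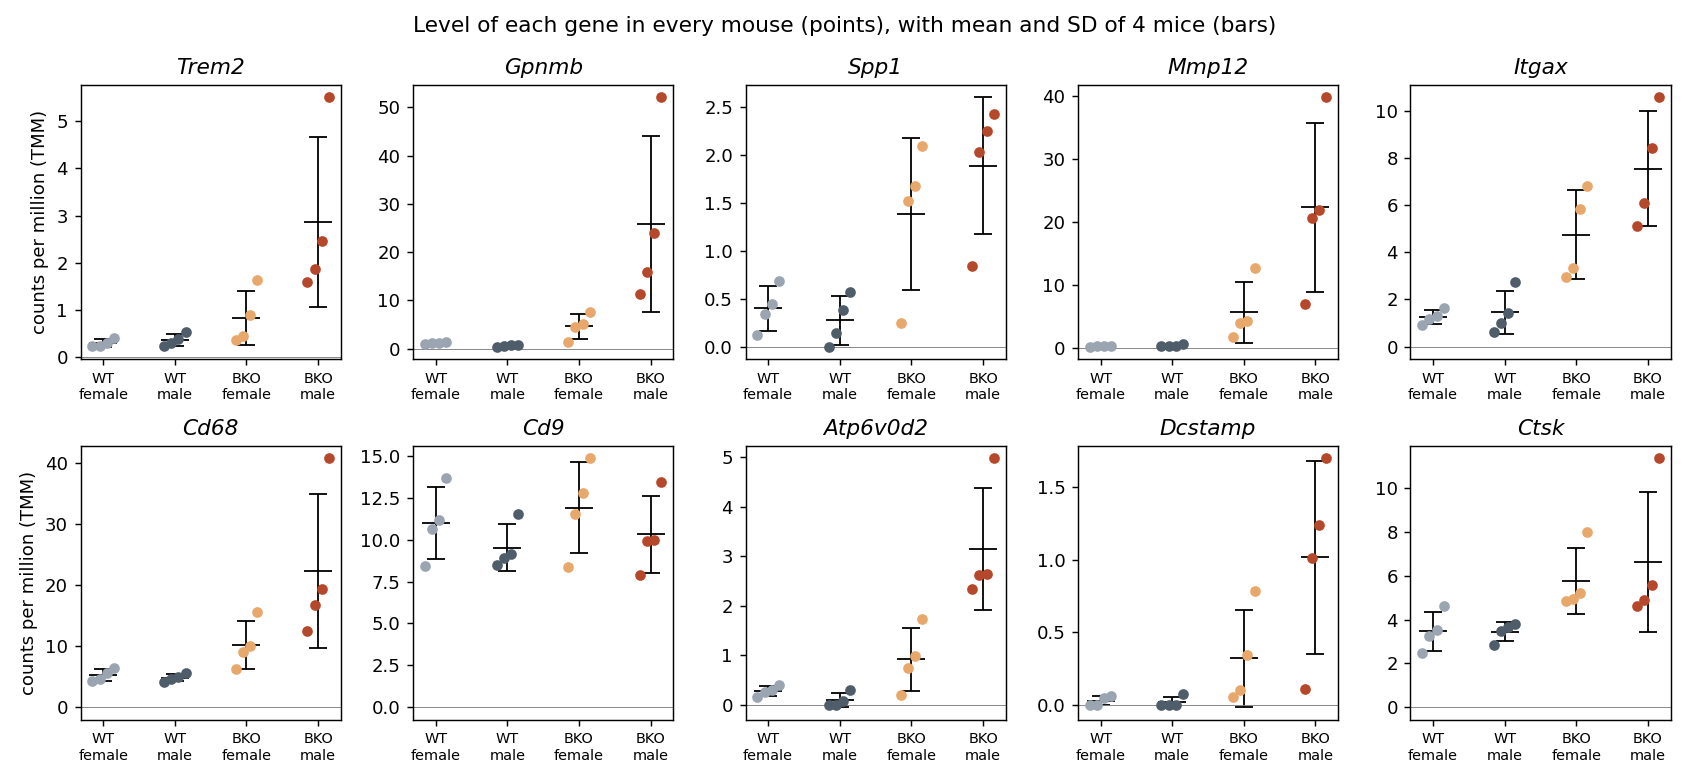
Level of each of the 10 genes in TMM-scaled CPM (linear axis from 0) in every mouse, as points in 4 groups of 4 mice, with the mean and SD of each group as bars. In Mmp12, Itgax and Ctsk all OPA1 BKO points lie above all WT points, in Ctsk with a near tie between the closest points. In Cd9 the groups lie at the same height, and in most panels the OPA1 BKO males reach higher than the OPA1 BKO females.

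The sequence before the start sites of the 10 genes, of which Cd9 did not rise, was looked up for shared letters. Whether such letters have a part in the rise of the others was not tested. RefSeq promoter windows (GRCm38.p6, 250 bases before to 50 after each start) were found for 8 of the 10 genes, as 10 windows, and not for Atp6v0d2 and Dcstamp. The letters TGANTCA are a loose form of the site of the AP-1 family of transcription factors, which is TGACTCA or TGAGTCA. They occurred on either strand in 5 of the 10 windows, each of another gene (Trem2, Gpnmb, Mmp12, Itgax and Cd68), and in 7.81% of all 32851 promoter windows of the same length. In Trem2 the middle letter is A, so its match is outside the stricter form. GAGGAAGT, a form of the PU.1 motif, was found in 2 windows (Spp1 and the other start of Mmp12) and in 3.20% of all windows. TCATGTG, the M-box of the MITF and TFE factors, was found in 1 window (Mmp12) and in 3.77% of all, and CACGTG, the core of the lysosomal CLEAR element, in 0 and in 7.15%. The motifs do not share letters with one another in these windows, and such a match describes the letters and not the binding of a factor. The 5 windows with TGANTCA are shown from 160 bases before the start site through the first 20 bases from it, 5′ to 3′ on the strand of the gene, with the motifs in capitals (TGANTCA in each, and in Mmp12 also the M-box, read here from the other strand). They are shown so that the common letters and the otherwise different surroundings can be seen.
Trem2 (chr17:48346241-48346420, plus strand): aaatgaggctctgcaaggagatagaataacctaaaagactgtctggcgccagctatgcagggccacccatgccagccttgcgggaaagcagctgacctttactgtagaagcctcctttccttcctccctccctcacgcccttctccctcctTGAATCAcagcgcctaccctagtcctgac
Gpnmb (chr6:49036358-49036537, plus strand): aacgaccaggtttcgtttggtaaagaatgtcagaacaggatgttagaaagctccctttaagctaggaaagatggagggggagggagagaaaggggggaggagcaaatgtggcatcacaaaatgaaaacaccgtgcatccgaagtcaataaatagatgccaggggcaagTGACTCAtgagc
Mmp12 (chr9:7347214-7347393, plus strand): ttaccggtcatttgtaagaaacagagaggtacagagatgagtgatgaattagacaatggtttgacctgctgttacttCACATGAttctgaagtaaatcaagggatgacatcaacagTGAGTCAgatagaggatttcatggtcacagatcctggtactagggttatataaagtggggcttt
Itgax (chr7:128129390-128129569, plus strand): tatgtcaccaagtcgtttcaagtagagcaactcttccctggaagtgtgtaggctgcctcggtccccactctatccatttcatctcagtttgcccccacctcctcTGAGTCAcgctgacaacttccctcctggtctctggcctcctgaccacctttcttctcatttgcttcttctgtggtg
Cd68 (chr11:69666151-69666330, minus strand): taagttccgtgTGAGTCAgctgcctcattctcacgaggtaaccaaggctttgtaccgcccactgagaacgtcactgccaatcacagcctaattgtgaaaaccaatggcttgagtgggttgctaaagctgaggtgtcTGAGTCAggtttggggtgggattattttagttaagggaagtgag
In Gpnmb the motif lies just after the start site, in the other genes before it, and Cd68 holds it at 2 places.

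Trem2 lies on chromosome 17 (chr17:48346401-48354147, plus strand, GRCm38, as are all positions given here) and was scarce in WT BAT. In WT females it was at 0.312, 0.245, 0.406 and 0.247 CPM (mice S01, S05, S09 and S13) and in WT males at 0.305, 0.395, 0.534 and 0.242 CPM (S03, S07, S11 and S15). In OPA1 BKO females it was at 0.376, 0.887, 0.444 and 1.63 CPM (S02, S06, S10 and S14) and in OPA1 BKO males at 2.46, 1.60, 5.501 and 1.88 CPM (S04, S08, S12 and S16). All 4 OPA1 BKO males thus exceeded every WT mouse, while females S02 and S10 lay among the WT values, and the log2 fold change over both sexes was 2.20 ± 0.41 (SE, adjusted p = 0.000466, edgeR).

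The WT level of Trem2 rested on 3.50 to 7 counts per mouse, and most of these were assigned to 1 transcript that is not annotated as coding. Trem2-203 (chr17:48346440-48354147) is a retained-intron transcript of 4 exons and 4784 bases, while the coding Trem2-201 has 1088. In the 8 WT mice together 32.2 counts were assigned to it, against 4.73 to Trem2-201 and 3.89 to Trem2-202, both of which code for protein. In the 8 OPA1 BKO mice it received 76.5 counts, against 172.9 and 51.2 for the coding transcripts. Transcripts that do not code for protein thus held 79.0% of the Trem2 counts in WT and 26.0% in OPA1 BKO mice. Coding Trem2 had 0.123 to 3.003 counts per WT mouse and 3.46 to 77.0 per OPA1 BKO mouse. With coding transcripts alone, an alternative chosen after these shares were seen, the log2 fold change became 4.27 ± 0.62 (adjusted p = 5.85e-05), and the difference within females passed the test as well (3.76, adjusted p = 0.0184). In 7 of the 8 WT mice coding Trem2 was at 3 counts or fewer, so the size of its fold change is poorly determined at this depth. Mmp12 resembled it: 69.4% of its 47.6 WT counts but 42.1% of its 2316 OPA1 BKO counts were outside coding transcripts, the former mostly in the retained-intron transcript Mmp12-206 (28.8 counts) and the latter mostly in Mmp12-204 (867 counts), which is annotated for nonsense-mediated decay. The coding-only log2 fold change of Mmp12 was 5.73 ± 0.63, with the same limit, since 7 of 8 WT mice had 3 coding counts or fewer, and for the other 8 genes the coding-only value lay between 0.11 and 4.29, close to that over all transcripts. How Kallisto divides reads between transcripts of 1 gene is an estimate, and its part in these shares was not tested.

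**Figure D2:**
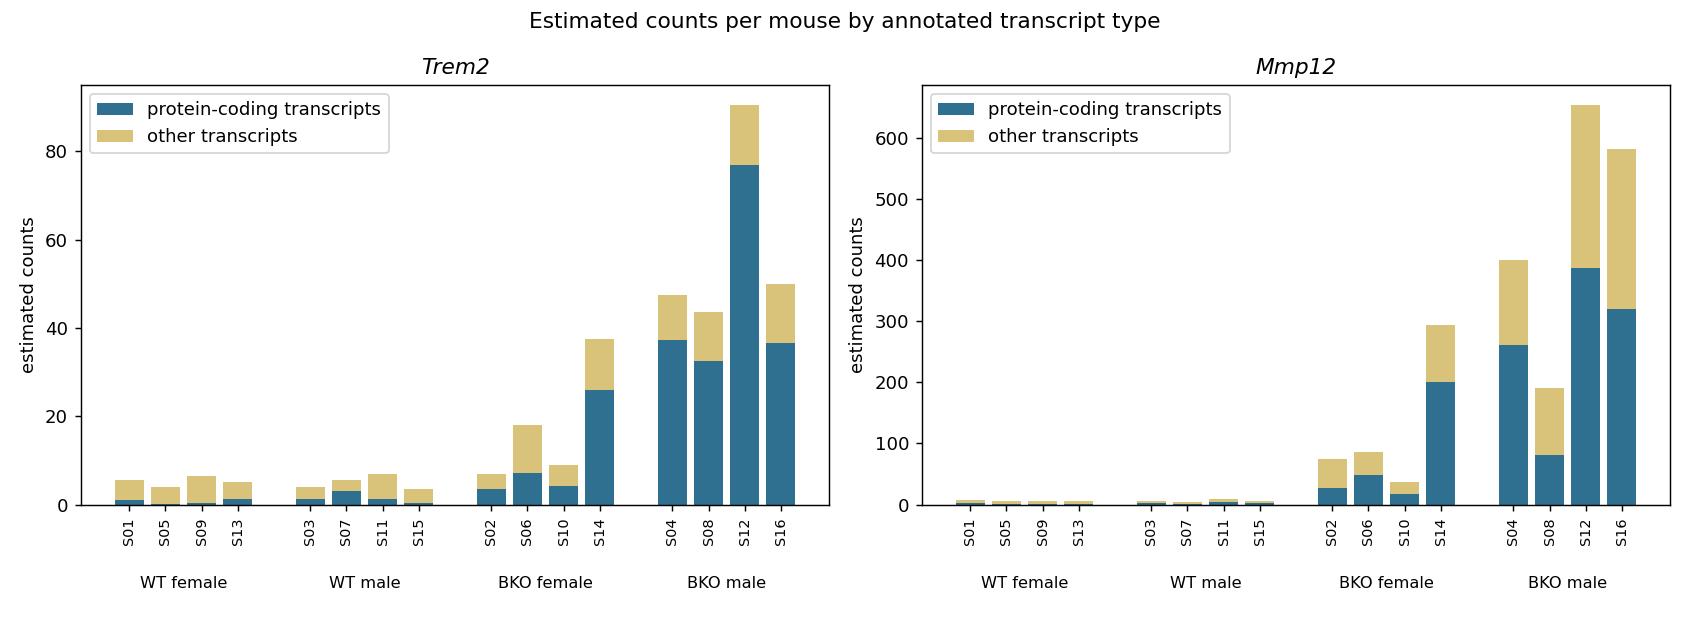
Estimated counts of Trem2 (left) and Mmp12 (right) in each mouse (bars, linear axis from 0), split into protein-coding transcripts and all other annotated transcripts. In WT mice the few counts of either gene are mostly outside coding transcripts, and in OPA1 BKO males coding transcripts hold the larger part of the Trem2 counts.

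Itgax (chr7:128129547-128150657, plus strand) encodes CD11c, an integrin chain of dendritic cells that macrophages in lipid-laden adipose tissue acquire. It was at 0.908, 1.29, 1.62 and 1.19 CPM in WT females and at 1.43, 1.005, 2.75 and 0.623 CPM in WT males. OPA1 BKO females had 2.95, 5.86, 3.35 and 6.83 CPM and OPA1 BKO males 8.43, 5.14, 10.6 and 6.09 CPM. The lowest OPA1 BKO mouse was thus above the highest WT mouse (S11), and the log2 fold change was 2.15 ± 0.28 (adjusted p = 1.88e-05). Itgax shares 10.7% of its 31-base words with the neighbouring integrin gene Itgad, so that some of its reads could be divided between both. Since CD11c also marks dendritic cells, their markers are given beside it: 7 of 12 rose and none fell, with a median of 0.71, among them Flt3 (1.24) and Irf8 (1.11), and the lowest, Itgae (-0.48), did not pass. The summed level of the 12 markers was 194 to 264 CPM in WT and 185 to 478 CPM in OPA1 BKO mice, and their part in the Itgax difference was not tested.

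Cd9 (chr6:125460266-125494791, minus strand) encodes a tetraspanin of the plasma membrane that is also found on many cells other than macrophages. It was at 10.3 ± 1.85 CPM in WT and at 11.1 ± 2.47 CPM in OPA1 BKO mice (SD, n = 8), with ranges of 8.44 to 13.7 and 7.89 to 14.9 CPM. The log2 difference was 0.11 ± 0.13 (adjusted p = 0.529), and the ranges overlapped almost fully. It shares 20.1% of its words with other annotated genes (Gm26728 and the pseudogene Cd9-ps among them). Cd9 was the exception to the rise also in each sex, with log2 differences of 0.12 in females and 0.11 in males, but this is a statement on the TMM scale: with the library total as the scale, where the median of all genes moved to 0.57, Cd9 was at 0.67 (adjusted p = 0.000464).

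The lysosomal and phagosomal genes Cd68, Gpnmb, Atp6v0d2 and Ctsk all rose. Cd68 (chr11:69664213-69666153, minus strand) encodes a heavily glycosylated protein of late endosomes and lysosomes that is used to stain macrophages. It had a lowest, median and highest level of 4.22, 4.77 and 6.50 CPM in WT and of 6.21, 13.997 and 40.7 CPM in OPA1 BKO mice, and its log2 fold change was 1.57 ± 0.28 (adjusted p = 0.000329). Only the lowest OPA1 BKO value, that of female S10, fell within the WT range.

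Gpnmb (chr6:49036546-49070929, plus strand) encodes a transmembrane glycoprotein of melanosomes and lysosomes that appears when lysosomes are loaded. In WT females it was at 1.22, 0.995, 1.46 and 1.15 CPM and in WT males at 0.461, 0.718, 0.560 and 0.845 CPM. In OPA1 BKO females it reached 5.05, 4.53, 1.44 and 7.60 CPM, and in OPA1 BKO males 24.03, 11.3, 52.03 and 15.8 CPM. Every OPA1 BKO male was above every OPA1 BKO female, and female S10 was the only OPA1 BKO mouse within the WT range. The log2 fold change was 3.55 ± 0.57 (adjusted p = 0.000141). Melanocytes express Gpnmb too. Of 6 tested Schwann cell and melanocyte markers none passed (median -0.05), Tyrp1 had 0 counts in all 16 mice, and the summed level of the list was 91.9 to 164 CPM in WT and 115 to 231 CPM in OPA1 BKO mice. The part of these cells in the Gpnmb difference was not tested.

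Atp6v0d2 (chr4:19876841-19922605, minus strand) encodes the d2 isoform of a subunit of the vacuolar proton pump, which acidifies lysosomes and is typical of osteoclasts and of some macrophages. It was at 0.166, 0.407, 0.250 and 0.297 CPM in WT females, and in WT males at 0.305 and 0.0692 CPM in S03 and S15, with 0 counts in S07 and S11. OPA1 BKO females had 0.753, 0.986, 0.198 and 1.73 CPM and OPA1 BKO males 2.64, 2.35, 4.98 and 2.62 CPM, so that here again each OPA1 BKO male was above each OPA1 BKO female. The log2 fold change was 3.08 ± 0.59 (adjusted p = 0.000646). Of the 16 other subunits and accessory proteins of the pump, 8 rose and none fell, all of them at higher levels and with smaller differences (median 0.20). Atp6v1h changed the most (0.93), followed by Atp6v1g1 (0.55) and Atp6v1a (0.54). Atp6v0d1, the widely expressed isoform of the same subunit, is named after its values were seen. Its level was 62.9 ± 6.03 CPM in the WT and 64.7 ± 9.44 CPM in the OPA1 BKO group (SD, n = 8 each), a log2 difference of 0.03 (adjusted p = 0.759, edgeR).

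Ctsk (chr3:95499256-95509362, plus strand), the collagen-degrading cathepsin of osteoclasts, rose the least. Its lowest, median and highest levels were 2.50, 3.49 and 4.62 CPM in WT and 4.62, 5.08 and 11.4 CPM in OPA1 BKO mice, and the highest WT value (female S09) and the lowest OPA1 BKO value (male S08) were the same to 3 digits. The log2 fold change was 0.83 ± 0.20 (adjusted p = 0.00291). Of 12 tested osteoclast and giant cell genes, 3 rose (Tnfrsf11a 0.63, Mitf 0.61 and Clcn7 0.33) and 2 fell, Mmp9 (-0.93) and Acp5 (-0.63), with a median of 0.01. The shares over all genes tested were 20.8% higher and 20.2% lower. Siglec15 had 0 counts in every mouse. Fibroblasts also express Ctsk, and 6 of 10 fibroblast and preadipocyte markers rose, Dpp4 (1.06) the most and Pdgfra (0.49) among the others, with summed levels of 688 to 1038 CPM in WT and 733 to 1431 CPM in OPA1 BKO mice. The part of fibroblasts in the Ctsk difference was not tested.

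The secreted products Mmp12 and Spp1 both rose. Mmp12 (chr9:7344381-7369499, plus strand), the macrophage metalloelastase, was at 0.403, 0.367, 0.348 and 0.259 CPM in WT females and at 0.383, 0.320, 0.687 and 0.363 CPM in WT males. OPA1 BKO females had 3.98, 4.25, 1.78 and 12.8 CPM and OPA1 BKO males 20.7, 6.99, 39.8 and 21.9 CPM. The lowest OPA1 BKO value was therefore above the highest WT value, and the log2 fold change was 4.92 ± 0.50 (adjusted p = 1.72e-06). Mmp12 overlaps Mmp1b on chromosome 9 and shares 6.59% of its words with other genes. Of 10 other tested metalloproteinases and inhibitors, 2 rose, the inhibitor genes Timp1 (1.90) and Timp2 (0.46), and 3 fell, Mmp9 (-0.93), Timp4 (-0.83) and Mmp19 (-0.44). Among all genes tested 20.8% rose and 20.2% fell, so these counts are near the background.

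Spp1 (chr5:104435118-104441050, plus strand) encodes osteopontin, a secreted ligand of CD44 and of several integrins. It was at 0.341, 0.122, 0.687 and 0.445 CPM in WT females and at 0.381, 0.575, 0 and 0.138 CPM in WT males. OPA1 BKO females had 2.09, 1.68, 0.247 and 1.52 CPM and OPA1 BKO males 2.43, 0.844, 2.25 and 2.03 CPM. With the exception of female S10, the OPA1 BKO mice lay above all WT mice, and the log2 fold change was 2.22 ± 0.48 (adjusted p = 0.00164). Spp1 shares 14.3% of its words with the overlapping gene Gm42793. Among its 9 receptor genes 3 rose and 2 fell, where 20.8% of all tested genes rose and 20.2% fell. Cd44 rose by 1.46 ± 0.27 (adjusted p = 0.00046, edgeR), Itgb5 by 0.59 and Itga9 by 0.32, whereas Itga8 fell by 0.51 and Itga5 by 0.31.

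Dcstamp (chr15:39745930-39760938, plus strand) encodes a transmembrane protein that macrophages and osteoclast precursors need for fusion. In WT mice it had 1 count at most, and 5 of the 8 had 0 counts. In OPA1 BKO females it had 1, 7, 2 and 18 counts and in OPA1 BKO males 24, 3, 28 and 27 counts. Every OPA1 BKO mouse had at least 1 count, and females S02 and S10 and male S08 were at 3 counts or fewer. With each WT mouse set to 3 counts, which is 0.148 to 0.229 CPM, the mean of the OPA1 BKO mice was higher by 3.41-fold, by 1.86-fold in females and by 4.62-fold in males. A limit of 3 counts holds for 0 counts, and the other WT mice had 1. These folds also ignore the spread between OPA1 BKO mice, and the female mean rests largely on S14 with 18 counts. They are therefore cautious estimates and not firm lower bounds. The fitted log2 fold change of 4.31 ± 0.82 passed the test (adjusted p = 0.000601) but depends on how counts of 0 are treated, and with Dcstamp at the cautious estimate of 3.41-fold the median of the 10 genes was 2.17.

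Within each sex the fitted differences were positive for all 10 genes, and for 9 of them, all but Cd9, the male value was above the female value. In females 3 of the 10 genes passed the test (Mmp12 at 4.03, Gpnmb at 1.97 and Itgax at 1.93), where 8.96% of all genes were higher and 9.03% lower, and 9 had an unadjusted p under 0.05. The female count was 6 without female S10, 6 without male S12, 5 without male S08 and 7 with DESeq2. For these fits the share of all genes that passed in females is not given here, so the counts have no background. In males 9 passed, where 17.9% of all genes were higher and 16.9% lower, with Gpnmb at 5.32, Atp6v0d2 at 4.99 and Mmp12 at 5.70. The median log2 fold change was 1.73 in females and 2.83 in males. In males OPA1 BKO and WT did not overlap for 9 genes (16.1% of all genes lay higher without overlap), and in females for 3 (11.1%). The difference between the sexes was itself tested as an interaction of genotype and sex, and none of the 10 genes passed, where 0.096% of all genes had a positive and 0.0192% a negative interaction. The largest were 3.35 ± 0.74 for Gpnmb (adjusted p = 0.0719) and 3.32 ± 1.03 for Atp6v0d2 (adjusted p = 0.181), and these and Cd68 (1.24) had an unadjusted p under 0.05. The Gpnmb interaction did pass with DESeq2 (3.36, adjusted p = 0.000394). DESeq2 gave no adjusted p for the interactions of Trem2, Spp1, Atp6v0d2 and Dcstamp, so these were not judged by it.

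**Figure D3:**
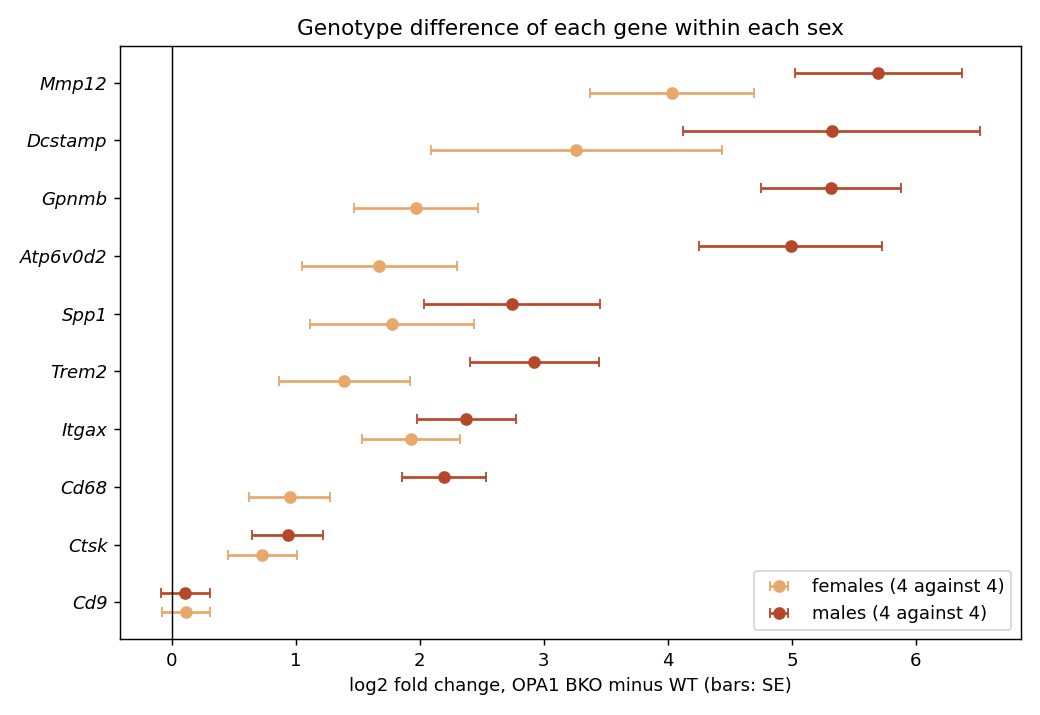
Fitted log2 fold change of OPA1 BKO against WT (x axis) for each gene (y axis), in females and in males, each 4 against 4 mice, with the SE as bars. The male value is above the female value for 9 of the 10 genes, most for Gpnmb and Atp6v0d2, and the values of Cd9 lie at 0.12 and 0.11.

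Mouse by mouse, the genes rose and fell together among OPA1 BKO mice. Male S12 had the highest level of 8 of the 10 genes among the 8 OPA1 BKO mice, and female S10 the lowest level of 5. Correlations were computed on log2 CPM within each genotype, for 45 pairs in each, and adjusted over all 90. Within OPA1 BKO mice all 45 values of Pearson's r were positive with a median of 0.71, and 18 pairs passed an exact two-sided permutation test by r and 18 by Spearman's rho. The share among pairs of all tested genes was not computed, so these counts have no background and are not a trait particular to these genes. Trem2 and Cd68 had r = 0.95 (n = 8, exact permutation p = 0.000223, adjusted p = 0.00614) and rho = 0.98 (exact permutation p = 0.000397, adjusted p = 0.00595), and r = 0.98 without the mice farthest from the median of Trem2, S02 and S12. Gpnmb and Atp6v0d2, the lysosomal pair, had r = 0.97 (n = 8, exact permutation p = 0.000124, adjusted p = 0.00558) and rho = 0.98 (exact permutation p = 0.000397, adjusted p = 0.00595), and r = 0.91 without S10 and S12. Mmp12 and Cd68 had r = 0.96 (n = 8, exact permutation p = 0.000273, adjusted p = 0.00614) and rho = 0.98 (exact permutation p = 0.000397, adjusted p = 0.00595), and r = 0.98 without S10 and S12.

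Spp1, Ctsk and Cd9 stood somewhat outside this group. None of the 9 pairs with Spp1 and none of the 9 with Cd9 passed, with median r of 0.60 and 0.42. No pair with Ctsk passed either (smallest adjusted p of r = 0.137, with Cd68, exact permutation test). The pairs without Spp1 and Cd9, which still include those with Ctsk, had a median r of 0.89. Because several genes were higher in OPA1 BKO males, r was also computed after the mean of each sex had been subtracted, where the median over all pairs was 0.81 and Gpnmb and Atp6v0d2 had r = 0.91. For Cd9 this changed the picture: its r with Gpnmb was 0.25 over the 8 mice and 0.96 after centring, its r with Cd68 0.43 and 0.95, and the median over its 9 pairs 0.86 after centring. These centred values describe 4 mice of each sex and were not tested.

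Within WT mice the median r was 0.04, 24 of the 45 pairs were positive, and none passed the adjusted test by r or rho, while 2 had an unadjusted p of r under 0.05. Trem2, Spp1, Mmp12, Atp6v0d2 and Dcstamp had 0 to 11 counts per WT mouse. Cd68, Cd9 and Ctsk had 37 or more, and their pairs, with r of 0.39 to 0.50, did not pass either.

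**Figure D4:**
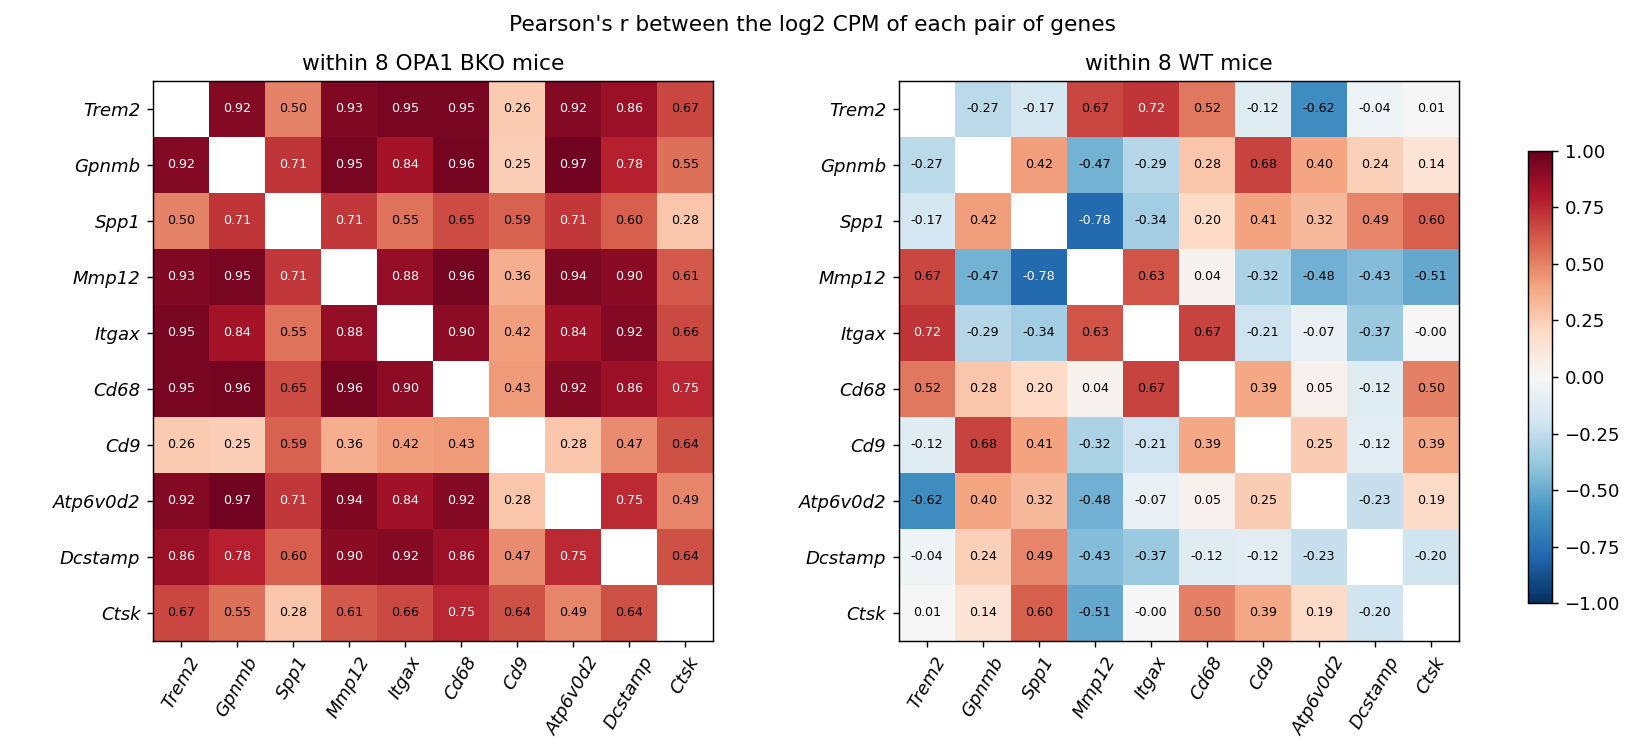
Pearson's r between the log2 CPM of each pair of the 10 genes, in 8 OPA1 BKO mice (left) and 8 WT mice (right), from -1 (blue) to 1 (red). Left, all values are positive and 18 of 45 pass the adjusted test, with Spp1, Cd9 and Ctsk paler than the rest, and right, signs are mixed and none passes.

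To see which other genes varied like these, tested genes averaging 1 CPM or more were ranked by their r with each of the 10 over the 16 libraries, after the mean of each of the 4 groups had been subtracted. Capg, which encodes an actin-capping protein of macrophages, was among the 10 most similar genes for Mmp12 (r = 0.94), Cd68 (0.94) and Gpnmb (0.91). Lcp1, the leukocyte plastin, was among them for Trem2 (0.88), Mmp12 (0.84) and Dcstamp (0.83), and Slc11a1, a metal transporter of phagosomes, for Cd68 (0.92), Mmp12 (0.87) and Trem2 (0.87). The nearest genes to Trem2 were Mfap2 (0.91), Lat2 (0.89) and Rgs10 (0.89), and those to Gpnmb were the collagen gene Col1a1 (0.94), Cd300lb (0.92) and Plekha4 (0.91). These rankings describe likeness only.

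The 10 genes were next set beside 20 general macrophage markers. Of these, 17 rose, 1 fell (Mertk, -0.65) and the median was 1.15, with Ctss (2.15), Lyz2 (1.91) and Itgam (1.91) the highest. Their summed level was 154 to 210 CPM in WT and 192 to 748 CPM in OPA1 BKO mice, where 7 of 8 mice were above the highest WT mouse. Female S10 had the lowest sum (192 CPM), which lies within the WT range, and male S12 the highest (748 CPM). The 10 genes followed this sum among OPA1 BKO mice with r from 0.59 for Cd9 to 0.86 for Itgax, but none passed after adjustment over 20 relations (smallest adjusted p = 0.0653, exact permutation tests, n = 8), and without S10 and S12 r lay between -0.03 for Spp1 and 0.70 for Itgax, with Ctsk at 0.58, Trem2 at 0.49, Gpnmb at 0.22 and a lower value than with them for each of the 10.

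With the log2 of the summed macrophage level added to the model, 2 of the 10 genes passed the test as higher. These were Mmp12 at 3.16 ± 0.55 (adjusted p = 0.00144) and Itgax at 1.15 ± 0.35 (adjusted p = 0.0389), where 8.99% of all genes were higher and 6.53% lower. The median of the 10 genes was then 1.13. Trem2 (0.38 ± 0.42), Cd68 (0.21 ± 0.25) and Ctsk (0.17 ± 0.27) were near 0, and Gpnmb (1.25 ± 0.55), Atp6v0d2 (1.34 ± 0.80), Spp1 (1.12 ± 0.77) and Dcstamp (2.41 ± 1.11) stayed positive without passing. Cd9 was at -0.40 ± 0.20 (adjusted p = 0.188). The added term itself differed by genotype, at 154 to 210 CPM in WT and 192 to 748 CPM in OPA1 BKO mice. Among OPA1 BKO mice only female S10 lay within the WT range, so this model separates genotype from macrophage level poorly. The same term moved the median of the skeletal muscle markers from 1.44 to -5.40. Whether macrophage number accounts for any of the differences cannot be decided from this model. As a percentage of the summed macrophage level, Mmp12 was at 0.123 to 0.372 in WT and at 0.927 to 7.42 in OPA1 BKO mice, the only gene of the 10 to lie higher without overlap, and Cd9 was lower without overlap, at 4.83 to 7.39 against 1.80 to 4.37. The Cd9 level itself hardly differed, so its percentage fell because the sum it was divided by rose. It is not a measure of Cd9 per macrophage. The Cd68 percentage overlapped in females (WT 2.47 to 3.48, OPA1 BKO 2.36 to 3.24) but not in males (WT 2.70 to 3.12, OPA1 BKO 3.16 to 5.70).

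**Figure D5:**
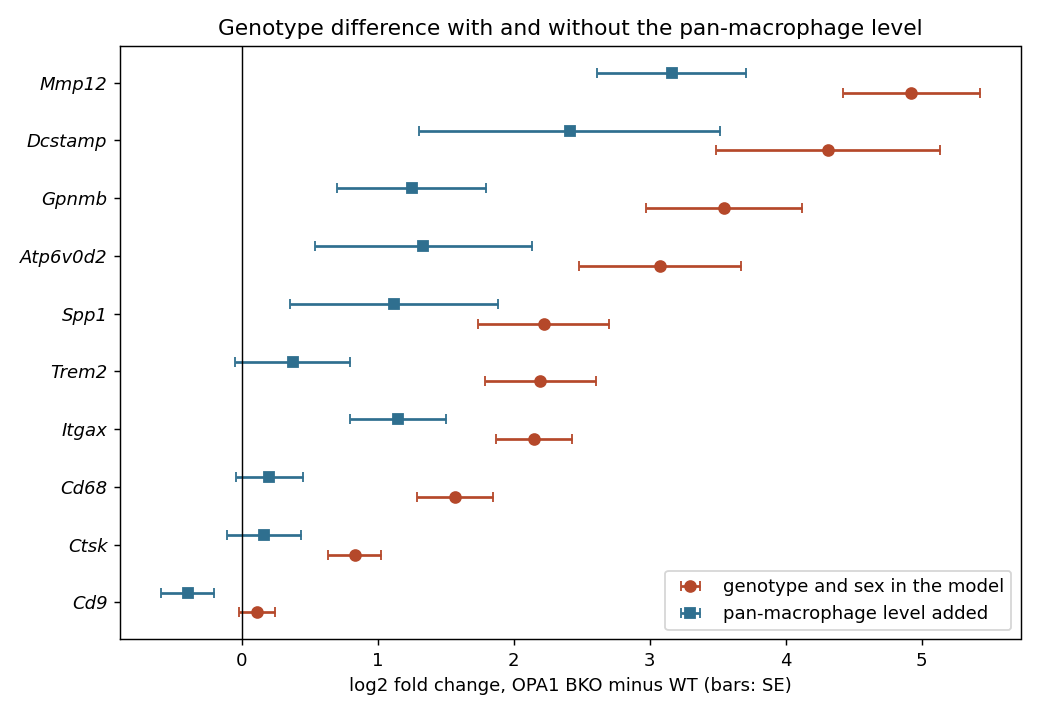
Fitted log2 fold change of OPA1 BKO against WT (x axis) for each gene (y axis) in 16 mice, from the model with genotype and sex and from the same model with the log2 of the summed level of 20 macrophage markers added. Bars are the SE. All values move towards 0 or below it when the macrophage level is added, and Mmp12 stays at 3.16 and Itgax at 1.15.

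Genes of the signalling pathway of TREM2 rose with it. Of 9 tested genes for the receptor's adaptor and signalling proteins 8 rose and none fell (median 0.95). Tyrobp, the adaptor, rose by 1.46 ± 0.24 (adjusted p = 0.000179), Blnk by 1.21, the kinase gene Syk by 1.19, Pik3ap1 by 1.18, Vav1 by 0.95, Plcg2 by 0.75, Card9 by 0.58 and Inpp5d by 0.44, and Vav3 was at -0.18 without passing. Tyrobp is also 1 of the 20 macrophage markers, and with the macrophage level in the model none of these passed. The limit given above for that model holds here too. The other members of the TREM family were too scarce to be tested. The highest among them in OPA1 BKO mice was Trem3, at 0.244 ± 0.124 CPM against 0.0204 ± 0.0238 in WT, and it is named after its values were seen.

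Other genes reported in lipid-associated macrophages did not move as 1 group. Of 19 tested, 7 rose and 4 fell, where 20.8% of all tested genes rose and 20.2% fell, and the median was 0.06. Lgals3, which encodes galectin-3, rose by 3.32 ± 0.49 (adjusted p = 6.99e-05), from 4.95 ± 1.42 to 68.7 ± 79.5 CPM. It also passed with the macrophage level in the model (1.37, adjusted p = 0.0381), with the limit given above for that model. Capg rose by 1.63, the lipid droplet gene Plin2 by 1.54, the cholesterol ester hydrolase gene Nceh1 by 1.24, Cd63 by 0.97, Ctsl by 0.79 and the lysosomal lipase gene Lipa by 0.50. Apoe fell by 1.79, from 979 ± 303 to 292 ± 111 CPM, and Fabp4 by 0.80, Ctsb by 0.63 and Anxa5 by 0.29. Apoe, Fabp4 and Ctsb were above every one of the 10 members in WT BAT, and in whole tissue the levels do not show which cells carried the transcripts.

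Of 20 lysosomal hydrolase and membrane genes 7 rose and 2 fell, where 20.8% of all tested genes rose and 20.2% fell. Their median was 0.18, with the cholesterol transporter gene Npc1 highest (1.79) and its partner Npc2 lowest (-0.68). Among 12 tested growth factors and chemokines for macrophages 7 rose and 3 fell (median 0.61). Ccl6 (2.17), Ccl9 (2.13), Ccl7 (1.86), Cx3cl1 (1.78), Ccl2 (1.67), Csf1 (0.81) and Mif (0.41) rose, and C3 (-1.10), Il34 (-0.60) and Cxcl14 (-0.38) fell.

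Markers of other cells were counted for the same mice. Of 11 markers of tissue-resident macrophages 4 rose and none fell (median 0.50), with Folr2 (0.81) and Mrc1 (0.81) highest and Stab1 (-0.11) lowest. Of 7 monocyte markers 2 rose, Ccr2 (1.55) and Fn1 (0.83), and Ace fell (-0.29). Only 2 of 9 neutrophil markers had enough counts, of which Lcn2 rose (2.67) and Csf3r did not pass (-0.21). No lymphocyte marker rose and 3 of 10 fell, Cd79a (-1.29) the most, none of 8 endothelial markers rose and 4 fell, Erg (-0.46) the most, and of 12 brown adipocyte markers 2 rose, Elovl3 (2.99) and Pparg (0.47), and 5 fell, Adipoq (-1.38) the most. Of 3 epithelial and mast cell markers with enough counts Cpa3 rose (1.93). Skeletal muscle transcripts, from muscle that lies next to this depot, varied between mice without passing the test (median 1.44), with summed levels of 25.0 to 8079 CPM in WT and 3.83 to 20019 CPM in OPA1 BKO mice. Female S10, the lowest for 5 of the 10 genes, had the lowest muscle level, and male S12, the highest for 8, had 5572 CPM. The part of any of these cells in the differences of the 10 genes was not tested.

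Per length, the 10 genes changed places. In WT mice Cd9 had the highest level at 8.23 ± 1.89 TPM (SD, n = 8), followed by Cd68 at 4.74 ± 0.82 and Ctsk at 2.16 ± 0.48, and these did not overlap with one another. The other genes were below 1 TPM in every WT mouse, from Itgax at 0.385 ± 0.211 through Gpnmb, Spp1, Mmp12, Trem2 and Atp6v0d2 to Dcstamp at 0.0136 ± 0.0193, and each overlapped with its neighbour in this order. In OPA1 BKO mice Cd68 came first at 26.98 ± 17.5 TPM, then Cd9 at 17.01 ± 3.22 and Mmp12 at 15.4 ± 13.9, all of which overlapped, and Mmp12 had moved from the seventh place to the third. Gpnmb was at 7.63 ± 7.85, Ctsk at 7.38 ± 2.42 and Itgax at 3.22 ± 0.95 TPM, of which Ctsk and Itgax did not overlap, and Trem2 (2.63 ± 2.48), Spp1 (2.18 ± 1.05), Atp6v0d2 (1.38 ± 0.97) and Dcstamp (0.621 ± 0.530) followed with overlap between neighbours.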

How the data were processed

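RNA of BAT from 16 mice (4 per genotype and sex, taken from the labels) was quantified by the authors with Kallisto 0.45.0, as the submitters' processing notes state. For each transcript the authors deposited an estimated count, not normalized, and a TPM, scaled by effective length and library total. The transcript set was not given in the sources used here, and transcripts were joined to GENCODE M21 (GRCm38) by identifier. Estimated counts were summed per gene, rounded, filtered (filterByExpr, minimum count 10, minimum total 15), scaled by TMM and fitted with the quasi-likelihood method of edgeR 4.0.16 (R 4.3.3, Benjamini-Hochberg over 15632 genes, called at adjusted p under 0.05). Female, male and interaction effects came from a model with 1 mean per group. Log2 CPM for correlations used a prior count of 2. The fit was tested on simulated data. Alternatives used DESeq2 1.42.0 and limma 3.58.1, with a pseudocount of 0.5 on TPM. The members and gene lists were chosen with earlier results of these data known. Named genes were the 10 members, in each list the largest, the smallest and others that passed, for likeness those near at least 3 members and the first 3 for Trem2 and Gpnmb, and Opa1. Total counts of 13607283 to 23114534 per mouse set the precision, and limits at 0 counts (3 counts) cover counting error only. Each library is 1 mouse.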

Additional observations from a re-analysis of the deposited data

Results flagged for a closer look

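Each of the 10 genes was examined in each of the 4 groups of 4 mice for a single mouse far from the other 3, which made 40 examinations, of which 4 found one. For normally distributed values the limit used marks about 1 in 20, a rate that need not hold for CPM values or counts near 0. A lone count beside counts of 0, as for Dcstamp below, is always marked. Atp6v0d2 was at 4.98 CPM in OPA1 BKO male S12, with the next mouse at 2.64 CPM. Ctsk was at 11.4 CPM in the same male, with the next at 5.58 CPM, and at 8.01 CPM in OPA1 BKO female S14, with the next at 5.23 CPM. Dcstamp was at 0.0718 CPM in WT male S07 and at 0 in the other WT males, a difference of 1 count. Without S12 the log2 fold changes of Atp6v0d2 and Ctsk were 2.88 (adjusted p = 0.00113) and 0.65 (adjusted p = 0.00281), and both still passed.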

How the results depend on the processing

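The number of genes that rose over both sexes was 9 of 10 with DESeq2, RLE scaling, no filter on low counts, no term for sex, coding transcripts alone and without any single mouse. The alternative with coding transcripts was chosen after seeing the data, and the cause of the changes below was not tested. With the macrophage level as a term it was 2, with 1 in females, 3 in males and a median of 1.13 in place of 2.21. In females 7 passed with DESeq2, 10 with library size alone and 8 of 8 with limma on log2(TPM + 0.5), in place of 3 of 10, and the count ranged from 3 to 6 without single mice (5 without OPA1 BKO male S08, 6 without female S10 and 6 without male S12). The share of all genes that passed within a sex under these alternatives is not given here, so these counts have no background. With library size alone and with limma most genes were called higher over both sexes, as given below. Without single mice 8 to 9 passed in males, 0 for the interaction, and the median log2 fold change was 2.06 to 2.40. The interaction of Gpnmb passed with DESeq2, library size alone (3.46, adjusted p = 0.0397) and limma (2.54, adjusted p = 0.0437), which is 1 gene each. Library size alone and TPM moved the median of all genes to 0.57 and 0.87, with 10869 genes higher and 373 lower and 11882 higher and 103 lower in place of 3255 and 3157, and Cd9 then passed at 0.67 and 1.01. The median r within WT was -0.15 without WT female S09 (range -0.15 to 0.13 without single mice), and within OPA1 BKO 0.69 to 0.81. Limma and the filter at a mean of 1 TPM, where 7 of 8 passed, left out Atp6v0d2 and Dcstamp. No paired analysis was possible because the labels give the groups no shared replicate numbers. Counts of 3 or fewer in most WT mice limit the fold changes of Dcstamp and of coding Trem2 and Mmp12.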
